A study of Mus musculus with 9 samples.

Results

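The skeletal muscle genes Myh3, Myh8, Myog, Myod1, Ckm, Mylpf, Myl1, Neb and Ttn were followed array by array through 3 layers of the newborn mouse bladder. All probe sets that the platform annotation gives to these 9 symbols were taken, 16 probe sets of 45101, for 9 of 18193 named genes. The genes were picked from the intensities of these same arrays, since some were high in all detrusor arrays and others in detrusor replicate 1 alone. Their levels in detrusor are thus a description, and nothing is read from tests of them. Detrusor (the smooth muscle coat), stroma and urothelium (the lining epithelium) were taken from frozen sections by laser capture, with 3 arrays per layer and 9 in all. All mice were FVB/N animals carrying the SMGA/EGFP transgene, in which the smooth muscle gamma actin promoter drives EGFP, and the labels give no other treatment. Detrusor 1, detrusor 2, stroma 1 and urothelium 2 came from postnatal day 1, and detrusor 3, stroma 2, stroma 3, urothelium 1 and urothelium 3 from day 2. The labels say that samples were not pooled, but they do not tie samples to animals, so the spread between arrays may be technical and p-values measure that spread.

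Skeletal muscle forms when myoblasts under the control of the MyoD family of transcription factors, which includes Myod1 and Myog, leave the cell cycle and fuse into fibres. Young fibres carry the embryonic and perinatal myosin heavy chains, Myh3 and Myh8, which adult fast chains later replace, together with the fast light chains Myl1 and Mylpf. Titin (Ttn) and nebulin (Neb) are giant proteins that set the length of the sarcomere, and muscle creatine kinase (Ckm) buffers ATP beside it. The detrusor is a smooth muscle with no striated sarcomere, whose thick filament is built from the smooth muscle myosin Myh11.

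Factors of the MyoD family bind the E-box, CANNTG, so the bases before the start of a gene are shown for 2 of the genes that were high in all detrusor arrays and 2 that were high in detrusor 1 alone. Each run is the 250 bases before the start on the gene's strand, from RefSeq, build GRCm38.p6, with E-boxes in capitals. Ckm lies at chr7:19410844-19411093 (plus strand), Myh8 at chr11:67276874-67277123 (plus strand), Myog at chr1:134289754-134290003 (plus strand) and Mylpf at chr7:127211358-127211607 (plus strand).
Ckm: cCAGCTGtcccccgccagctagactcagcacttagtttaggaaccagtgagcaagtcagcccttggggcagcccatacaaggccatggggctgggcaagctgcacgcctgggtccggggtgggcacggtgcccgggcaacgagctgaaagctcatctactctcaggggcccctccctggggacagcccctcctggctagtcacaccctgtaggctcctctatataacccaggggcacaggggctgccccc
Myh8: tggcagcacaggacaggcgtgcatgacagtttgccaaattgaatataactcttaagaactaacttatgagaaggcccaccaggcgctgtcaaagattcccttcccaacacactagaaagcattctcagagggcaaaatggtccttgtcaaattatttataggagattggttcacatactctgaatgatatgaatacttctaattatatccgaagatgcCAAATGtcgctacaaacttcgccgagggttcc
Myog: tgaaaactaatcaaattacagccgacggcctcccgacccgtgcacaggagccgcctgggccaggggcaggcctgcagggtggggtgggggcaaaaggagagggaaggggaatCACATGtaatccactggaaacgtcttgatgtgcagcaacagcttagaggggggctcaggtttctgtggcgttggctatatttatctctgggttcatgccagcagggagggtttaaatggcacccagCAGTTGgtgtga
Mylpf: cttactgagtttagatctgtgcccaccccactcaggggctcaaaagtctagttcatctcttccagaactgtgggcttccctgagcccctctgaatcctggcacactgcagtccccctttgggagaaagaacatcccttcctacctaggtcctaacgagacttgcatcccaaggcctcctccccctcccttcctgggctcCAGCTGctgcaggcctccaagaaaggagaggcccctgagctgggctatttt
A promoter was found for 7 of the 9 genes. Every one of the 7 held at least 1 match to CANNTG on either strand, which reads the same on both, as did 66.2% of 32851 promoters of the same length. The form CAGCTG, which is also a CANNTG match, stood before Ckm (249 bases before the start), Mylpf (51) and Myl1 (224), against 13.0% of all promoters. Myog held 2 E-boxes, 138 and 12 bases before its start. The CArG box of smooth and striated muscle genes (1.47% of all promoters) had 0 matches before the 7 genes. The MEF2 box (0.508%) had 1, before Ttn, which read CTAAATTTAG. Only exact matches to the searched form of each box were counted. A gene without a match to the MEF2 box, such as Myog, may thus still hold a variant of that box. E-box letters thus stood before genes of both patterns, and a match describes the letters and not a bound site.

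Deposited values were linear intensities scaled to a trimmed mean of 1500 on each array, with array medians between 133.3 and 388.5 and no detection calls, so a value below about the median cannot be called absent. Smooth muscle transcripts marked the detrusor arrays, with Myh11 at 57477, 97104 and 68452 intensity units. Myh11 itself read 2406 to 10003 in stroma. Urothelium 3 stood apart from its layer with 51568 for Myh11, against 820 and 221 in urothelium 1 and 2. The summed intensity of 10 urothelial genes was 62703, 18263 and 222916 in stroma 1, 2 and 3, against 6056 to 8074 in detrusor and 255723 to 380282 in urothelium. Urothelial transcripts were thus most abundant in stroma 3 and next in stroma 1, where Krt19 read 10013 against 10792 in stroma 3. Of a list of 14 smooth muscle genes, 8 were raised in all 3 detrusor arrays in the sense defined below for the muscle genes. Fewer muscle cells and less RNA per cell cannot be told apart in such samples.

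Ckm and Myh8 were high in all 3 detrusor arrays. The main probe set of Ckm read 16948, 11975 and 15210 in detrusor 1, 2 and 3. In stroma it read 299, 185 and 302. In urothelium 1 and 2 it read 141 and 57.9, and 1558 in urothelium 3. No stroma or urothelium array reached the detrusor range, and urothelium 3 was the highest of them. On the log2(intensity + 39.31) scale used from here on, Ckm was 13.83 ± 0.26 (SD, n = 3) in detrusor, 8.21 ± 0.35 in stroma and 8.25 ± 2.12 in urothelium, a difference between detrusor and stroma of 5.62. The other Ckm probe set was low throughout, between 110 and 490, and did not follow the main one.

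Myh8, the perinatal heavy chain, read 14105, 3406 and 5701 in the detrusor arrays. It read 20.4, 5.25 and 87.1 in stroma, and 15.4, 3.33 and 1235 in urothelium. Detrusor 1 was the highest array, and the detrusor values did not overlap those of the other layers, which overlapped each other. Its log2 level was 12.68 ± 1.03 (SD, n = 3) in detrusor, 6.12 ± 0.78 in stroma and 7.17 ± 2.73 in urothelium. The difference between detrusor and stroma of 6.56 rests on stroma values near the bottom of the scale and was 7.62 with a pseudocount of 8.13 and 4.66 with one of 232.9.

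Myog, Myh3, Mylpf and Myl1 were high in detrusor 1 alone. Myogenin (Myog), which drives the final step of myoblast differentiation, read 2846 in detrusor 1, against 7.97 in detrusor 2 and 48.4 in detrusor 3. Stroma arrays gave 216, 109 and 33.4 for it, and urothelium arrays 18.8, 5.78 and 156. Detrusor 2 and 3 thus lay within the range of the arrays of the other layers, and detrusor 1 was 11.3-fold above the highest other array on the log2 scale with its pseudocount. The gap between detrusor 1 and the mean of detrusor 2 and 3 was 5.49 log2 units.

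Myh3, the embryonic heavy chain, read 10316 in detrusor 1, and 253 and 175 in detrusor 2 and 3. Stroma values were 26.6, 383 and 166, and urothelium values 221, 130 and 45.2. Myh3 had the largest lead of detrusor 1 over the other 8 arrays among the 9 genes, 4.62 log2 units. The regulatory fast light chain Mylpf read 3663 in detrusor 1, against 134 and 96.4 in detrusor 2 and 3, with stroma arrays at 523, 144 and 169 and urothelium arrays at 185, 95.7 and 10.1. The essential fast light chain Myl1 read 2325 in detrusor 1, and 41.0 and 20.6 in detrusor 2 and 3. Its stroma values of 350, 391 and 413 and its urothelium values of 126, 56.6 and 266 stood beside low values in detrusor 2 and 3. For these 4 genes detrusor 1 was higher than the mean of detrusor 2 and 3 by 4.59 to 5.49 log2 units, whereas for Ckm it was 0.33 and for Myh8 1.67.

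Ttn differed between its probe sets. 2 of its 6, the probe sets with the highest detrusor 1 values, were high in detrusor 1 alone. One read 2699 in detrusor 1, 15.9 and 84.6 in detrusor 2 and 3, and 32.8 to 176 elsewhere. The other read 1705 in detrusor 1 and 6.54 to 50.8 on the other 8 arrays, and its name ends in _s_at, which marks probes shared by several transcripts. The remaining 4 Ttn probe sets led by less than 1 log2 unit or not at all, with detrusor 1 values between 69.9 and 317. The one of these with the highest mean log2 level, which stood for the gene, had 317 in detrusor 1 and 336 in urothelium 3.

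Neb and Myod1 were highest in detrusor 1 by small margins. Neb read 491 in detrusor 1, 10.9 and 1.99 in detrusor 2 and 3, 106, 300 and 54.8 in stroma, and 87.1, 199 and 115 in urothelium. The Neb values of detrusor 2 and 3 were below the pseudocount of 39.31 and have no order. Myod1, the determination factor that acts before Myog, read 507, 28.9 and 57.3 in detrusor, 412, 253 and 404 in stroma, and 177, 57.7 and 213 in urothelium. Its stroma levels lay close under detrusor 1 and above detrusor 2 and 3. A further Myod1 probe set, of the _x_at kind that can cross-hybridise, read 168 at most, in stroma 1.

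**Figure D1:**
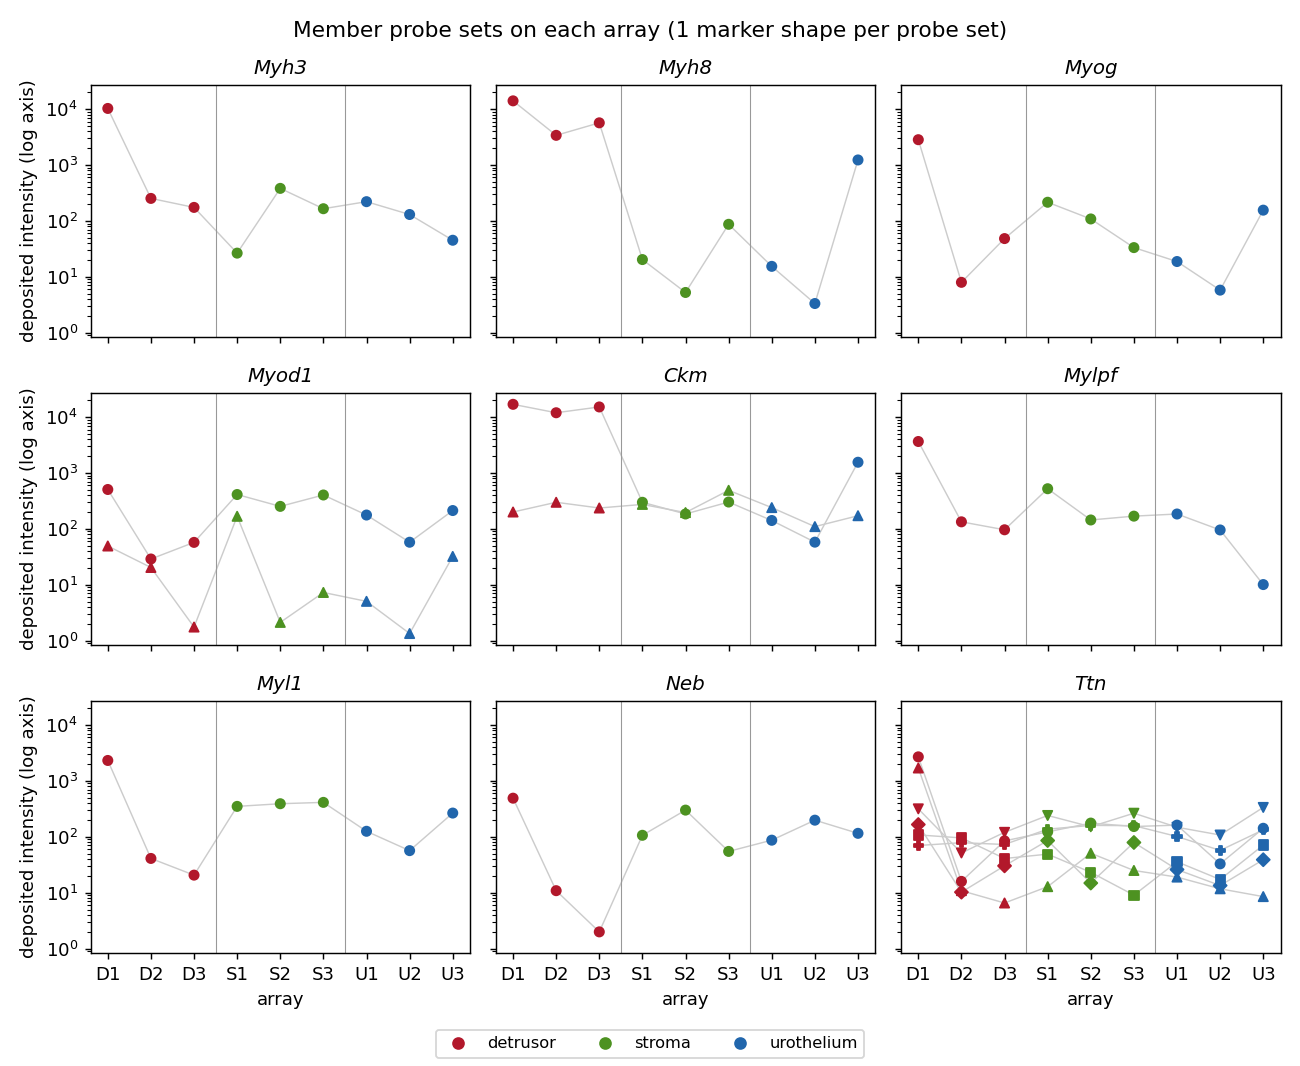
Deposited intensity (log axis) of the 16 probe sets of the 9 genes on each array, with D for detrusor, S for stroma and U for urothelium, 1 marker shape per probe set of a gene and a thin line joining the arrays of a probe set for the eye. Ckm and Myh8 are high on D1, D2 and D3 and next highest on U3, while Myh3, Myog, Mylpf, Myl1 and 2 Ttn probe sets are high on D1 alone.

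The patterns were put into numbers. A gene counted as raised in all 3 detrusor arrays when the lowest of them was at least 1 log2 unit above the highest of the 6 other arrays, and as raised in detrusor 1 only when detrusor 1 was at least 1 unit above each of the other 8 and the first condition failed. The probe set with the highest mean log2 level stood for its gene. Of the 9 genes, 2 were raised in all 3 (Ckm and Myh8), 4 in detrusor 1 only (Myh3, Myog, Mylpf and Myl1) and 3 in neither way. Over all 18193 named genes the shares were 1.4% and 0.28%. Among the 6 of the 9 that passed the filter on low values described below, 2 were raised in all 3, 2 in detrusor 1 only and 2 in neither way, beside 1.97% and 0.168% of the 13064 genes that passed. Of the 16 probe sets, 2 were raised in all 3 and 6 in detrusor 1 only, beside 1.04% and 0.252% of all probe sets with 1 symbol. These genes were chosen for the patterns, so nothing is read from these counts. Just inside the limits stood Myh8, whose lowest detrusor array was 1.43 above the highest other, and Myl1, with a lead of detrusor 1 of 2.39. Just outside were Neb (lead 0.64) and Myod1 (0.28). With a limit of 2 log2 units Myh8 left the first group, and with the mean of all probe sets of a gene Ttn joined the second.

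**Figure D2:**
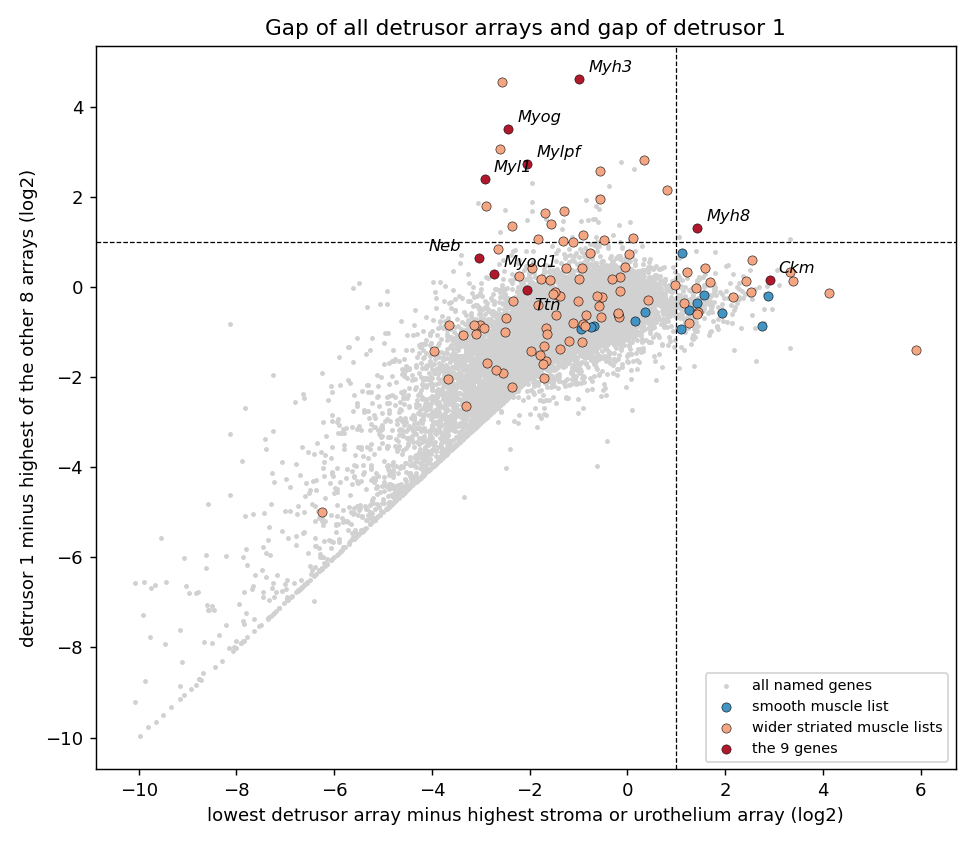
For each named gene, the lead of the lowest detrusor array over the highest stroma or urothelium array (x, log2) against the lead of detrusor 1 over the other 8 arrays (y, log2), with dashed lines at 1 log2 unit. Ckm and Myh8 lie right of the vertical line, Myh3 at 4.62 is the highest of the 9 genes, and the smooth muscle list (blue) has 0 genes in the upper left area.

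Of the 9 genes, 6 passed the filter on low values (at or above the array median on 3 arrays): Myh3, Myh8, Myod1, Ckm, Myl1 and Neb. Myog, Mylpf and Ttn did not, being above the median on 1 or 2 arrays. In the limma fit against stroma 2 of the 6 (Ckm and Myh8) passed an adjusted p of 0.05, where 5.84% of all genes did in either direction, and 2 of 6 did so against urothelium, where 16.4% did. The choice of genes used these contrasts, so nothing is read from those counts, and Myh8 did not pass against stroma without detrusor 3. Urothelium was then compared with stroma on the 6 arrays of those layers, a contrast that the choice did not use. The filter counted detrusor arrays, though, and without them Myh3, Myh8, Ckm and Neb would not have passed it. Myod1 and Myl1 would have. For the former the contrast was thus not free of detrusor values. Limma called 0 of these 6 genes, as it called 0 of all 13064 genes tested (0%), while an unadjusted p under 0.05 went to 2071 of all genes and to 1 of the 6, Myl1. Myl1 was lower in urothelium by -1.32 ± 0.58 log2 units (SE, n = 3 per layer, adjusted p = 0.314, from 0.277 to 0.683 over the alternatives), and all its stroma values were above its urothelium values. Myod1 came next, at -1.16 ± 0.57 (adjusted p = 0.374, from 0.343 to 0.751). Ckm (0.04 ± 0.98, adjusted p = 0.989) and Myh8 (1.05 ± 1.29, adjusted p = 0.74) had wider errors, and without stroma 3 and urothelium 3 their differences were -1.06 and -0.09. Without stroma 3 this comparison called 145 of all genes, and with the spread taken from all 9 arrays 30, with 0 of the 6 genes in either.

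The 2 patterns also differed in urothelium 3, the array with much smooth muscle RNA. Its level of Ckm was 3.59 and of Myh8 4.72 log2 units above the mean of urothelium 1 and 2. For Myog the difference was 1.93, for Myl1 1.28, for Myh3 -1.32 and for Mylpf -1.82. The part of the smooth muscle RNA of that array in these values was not tested.

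Myh3 and Myh8 belong to a cluster of skeletal myosin heavy chain genes on chromosome 11, in the order Myh3, Myh2, Myh1, Myh4, Myh8 and Myh13, of which Myh13 had no probe set here. Myh2, an adult fast chain, read 3078, 405 and 3794 in detrusor. Its stroma arrays read 883, 88.0 and 579, its urothelium arrays 51.6, 69.6 and 5559, and urothelium 3 was its highest array. Myh1, another fast chain, read 1162, 54.0 and 865 in detrusor on an _x_at probe set and 1032, 48.0 and 757 on a further one, high in detrusor 1 and 3 but not 2. On the remaining probe set the same gene stayed between 10.4 and 32.3. Both Myh4 probe sets stayed at or below 102 on every array. The chains are close paralogs, and probes marked _x_at may read more than 1 of them.

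**Figure D3:**
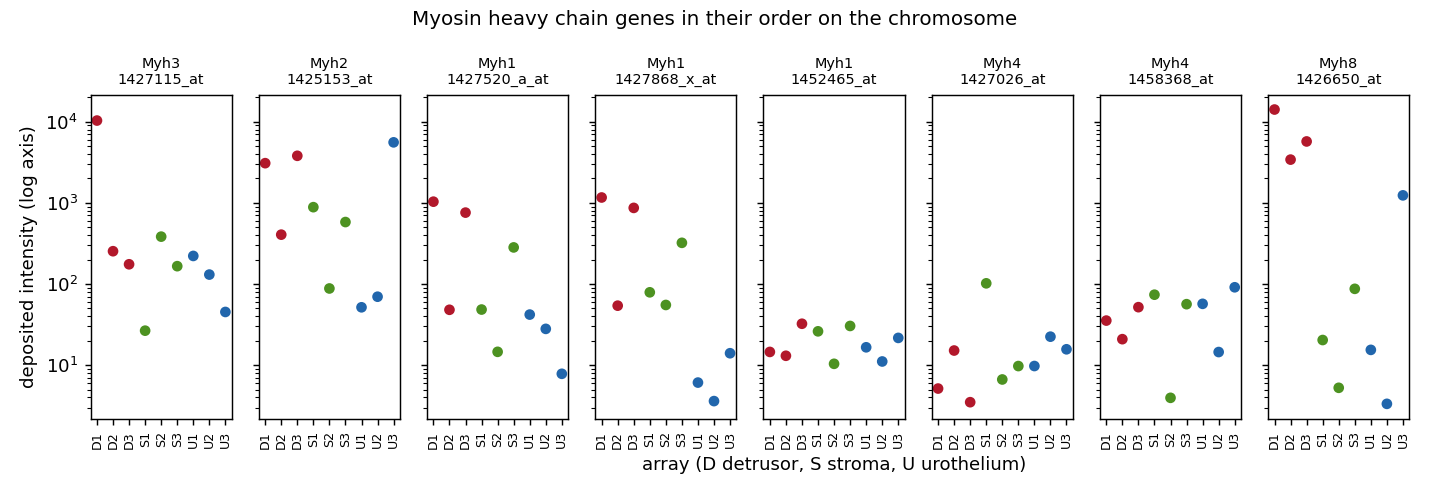
Deposited intensity (log axis) on each array for the 8 probe sets of the myosin heavy chain cluster, ordered as the genes lie on the chromosome, with detrusor in red, stroma in green and urothelium in blue. Myh3 is high on D1, Myh8 on all detrusor arrays and U3, Myh2 on D1, D3 and U3, and Myh4 on none.

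A wider set of 99 striated muscle genes in 4 lists was read the same way, of which 94 were on the array and 57 passed the filter. These lists overlap the pattern for which the 9 genes were chosen, so they do not support it independently. They also hold genes whose expression is not restricted to striated muscle. Des, Cryab, Jph2 and Slc2a4 are such genes, and all were raised in all 3 detrusor arrays, so a count from these lists is not one of striated transcripts alone. Detrusor was compared with stroma and with urothelium with limma over all 9 arrays. Against stroma, 16 of the 57 were higher in detrusor and 0 lower, beside 3.12% higher and 2.72% lower among all 13064 genes (408 and 355, or 588 and 144 with arrays centred on their medians). The median difference of the 57 was 0.99, against -0.16 for all genes. The count was 6 without detrusor 1, 3 without detrusor 2 and 4 without detrusor 3, while the genes called higher among all those tested fell from 408 to 167, 105 and 58. Against urothelium, 23 were higher and 1 lower, beside 8.05% and 8.37% of all genes, with a median of 1.54 against 0.01.

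The sarcomere list of 40 genes on the array held 8 of the 16 calls against stroma, out of 25 tested. The fast troponins Tnnc2 (5.36 ± 0.95 log2 units, SE, n = 3 per layer, adjusted p = 0.01355) and Tnnt3 (5.15 ± 1.04, adjusted p = 0.02054) led it, with the Z-disc gene Ldb3 (4.92 ± 1.18, adjusted p = 0.03648) and the slow troponin Tnnt1 (4.68 ± 0.81, adjusted p = 0.01217). Tnnc2 read 21843, 19810 and 24042 in detrusor, from 416 to 537 in stroma, and 16, 11 and 1098 in urothelium. At the other end Tmod4 (-1.30 ± 0.67, adjusted p = 0.273) and Mybpc1 (-1.27 ± 0.93, adjusted p = 0.451) were not called. 9 of the 40 genes were raised in all 3 detrusor arrays and 12 in detrusor 1 only. The latter term marks a lead of detrusor 1, and detrusor 2 and 3 may still exceed the other layers. Myh7 read 8361, 1842 and 891 in detrusor and 488 at most elsewhere. Trim63 read 715, 319 and 291 in detrusor and 265 at most elsewhere. Both of these genes were called against stroma. Among the 12, the M-band gene Myom2 read 7421 in detrusor 1, 15 in detrusor 2 and 207 in detrusor 3. The slow light chain Myl2 read 2398, 8 and 33, myotilin (Myot) 560, 46 and 34, and Mybph 326, 10 and 3.

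Of the excitation-contraction coupling genes 5 of 15 tested were higher in detrusor than in stroma. Triadin (Trdn), which anchors the calcium release complex, stood 6.55 ± 0.53 log2 units higher (adjusted p = 0.000315), the muscle caveolin Cav3 4.88 ± 0.76 (adjusted p = 0.008012), calsequestrin 1 (Casq1) 3.64 ± 0.72 (adjusted p = 0.01894) and sarcalumenin (Srl) 3.40 ± 0.50 (adjusted p = 0.006608). Trdn read 3002, 8002 and 2975 in detrusor and 2.24 to 10.7 on the other 6 arrays, all below the pseudocount, which therefore sets the size and the SE of its difference. The voltage sensor gene Cacna1s (-0.86) and the chloride channel gene Clcn1 (-0.53) did not pass the filter. 5 of the 20 genes on the array were raised in all 3 detrusor arrays and 1, the fast calcium pump Atp2a1, in detrusor 1 only, at 849 against 360 and 145 in detrusor 2 and 3.

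Of the energy metabolism genes 3 of 10 tested were higher in detrusor than in stroma, the glucose transporter Slc2a4 (3.53 ± 0.80, adjusted p = 0.02957), muscle enolase Eno3 (2.85 ± 0.58, adjusted p = 0.0215) and Pfkm (1.44 ± 0.34, adjusted p = 0.03631). Pgam2 (1.38) and myoglobin Mb (-1.25) did not pass the filter, and Ppargc1a (-2.73 ± 0.91, adjusted p = 0.107) was not called against stroma but was lower than in urothelium (-4.09 ± 0.91, adjusted p = 0.01159). Slc2a4 and Eno3 were raised in all 3 detrusor arrays, and the sarcomeric mitochondrial creatine kinase Ckmt2 in detrusor 1 only, at 355 against 28 and 10.

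The list of myogenic regulators and receptors had 0 of 7 tested genes called against stroma. The largest differences were those of Msc (1.30 ± 0.66, adjusted p = 0.268) and Mef2a (0.66 ± 0.31, adjusted p = 0.231), and Mdfi (1.03) and Myf5 (0.46) did not pass the filter. Pax3 (-1.88, not tested) and Six4 (-1.48 ± 0.74, adjusted p = 0.259) had the lowest. The muscle acetylcholine receptor subunit Chrna1 read 797 in detrusor 1, 45 in detrusor 2, 25 in detrusor 3 and 290 at most elsewhere. Myf6, of the MyoD family, read 202 in detrusor 1, against 51 and 45 in detrusor 2 and 3. These were the 2 genes raised in detrusor 1 only, and 0 were raised in all 3. Neither passed the filter. Myf6 led by only 1.03 log2 units, and its detrusor 1 value was below that array's median of 213.4.

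Without the 9 genes, the wider set had 16 of 94 genes raised in all 3 detrusor arrays (17.0%) and 16 of 94 raised in detrusor 1 only (17.0%), beside 1.4% and 0.28% of all named genes. Of the 57 that passed the filter on low values, 16 were raised in all 3 (28.1%) and 6 in detrusor 1 only (10.5%). The shares over all 13064 genes that passed were 1.97% and 0.168%. These lists were drawn up with the patterns known. In urothelium 3, 14 of the first 16 stood at least 1 log2 unit above both other urothelium arrays, and 4 of the second 16 did, against 6.3% of all named genes. The median difference between urothelium 3 and the mean of urothelium 1 and 2 was 3.04 for the first and 0.32 for the second, against 0.08 for all named genes. A rise in urothelium 3 was not particular to striated muscle genes. The smooth muscle list had a median log2 level of 14.2 there, against 9.86 and 8.62 in urothelium 1 and 2.

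**Figure D4:**
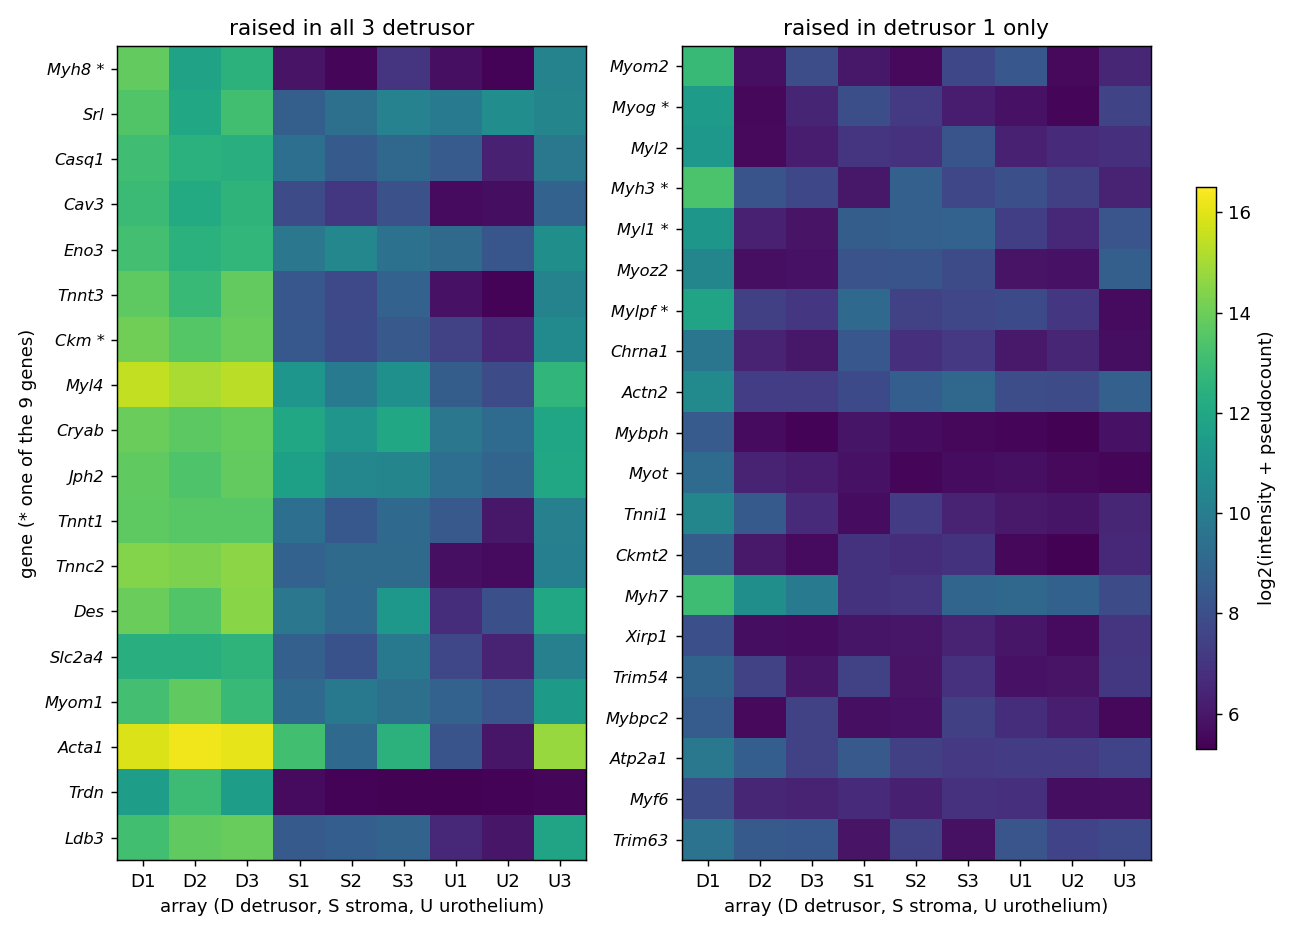
Level of the genes raised in all 3 detrusor arrays (left, 18 genes) and in detrusor 1 only (right, 20 genes) on each array, as log2(intensity + 39.31), with rows ordered by the difference between detrusor 1 and the mean of detrusor 2 and 3 and an asterisk for the 9 genes. On the left U3 is above U1 and U2 by at least 1 log2 unit in 16 rows, and on the right in 5.

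Detrusor 1 and detrusor 2 were from the same postnatal day. The ratio of 3' to 5' control signal for Actb, which grows with RNA degradation and with amplification, was 2.51 in detrusor 1, 7.49 in detrusor 2 and 2.27 in detrusor 3. For Gapdh it was 24.1, 34.7 and 15.9. The summed intensity of the 14 smooth muscle genes was 571382 in detrusor 1, 863921 in detrusor 2 and 663996 in detrusor 3, between 113990 and 295038 in stroma, and between 48502 and 561395 in urothelium, and 1 of the 14 had its highest detrusor value in detrusor 1. All 6 endothelial genes had theirs in detrusor 1, with sums of 10839, 5724 and 4071, against 8493 to 18287 in stroma and 1902 to 6359 in urothelium. 3 of 7 cartilage and bone genes, 4 of 6 macrophage genes, 4 of 6 neural and glial genes, 3 of 10 urothelial genes and 0 of 8 fibroblast and matrix genes did so. Among all 18193 named genes, 6135 had their highest detrusor value in detrusor 1. Of the 11 cardiac genes on the array 6 did. In that list 2 genes (Tnnt2 and Myl7) were raised in all 3 detrusor arrays, beside 1.4% of all named genes. Of its 8 genes tested, 0 were called against stroma and 3 were higher in detrusor than in urothelium, beside 8.05% of all genes. Nppa read 429, 377 and 435 in detrusor and 242 at most elsewhere, and Myh6 936, 811 and 192 and 168 at most elsewhere. The cardiac factors Nkx2-5 and Gata4 stayed at or below 293 in detrusor, too near the array medians to be called absent. In none of these other lists was a gene raised in detrusor 1 only. The share was 0.28% of all named genes, so lists this short would be likely to hold 0 and nothing is read from it. The part of these cell types in the result was not tested. Across all named genes the median difference between detrusor 1 and the mean of detrusor 2 and 3 was 0.05. It was 0.6 for the wider striated muscle genes, 0.12 for the myogenic list among them and 1.19 for the endothelial list. For the 9 genes it was 3.54, which restates how they were chosen.

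The genes outside every list whose profile over the 9 arrays was most like that of Ckm and Myh8 were 1700001O22Rik (Pearson's r = 0.994), Col19a1 (0.992), Aifm2 (0.992), Csrp1 (0.984), Stac (0.982), Ppp1r12b (0.982), Snd1 (0.979) and Slc8a2 (0.977). Col19a1, a collagen chain, read 3908, 2140 and 4213 in detrusor, from 101 to 210.2 in stroma, and 96.9, 74.6 and 1113 in urothelium. Those most like Myh3, Myog, Mylpf and Myl1 were Lhx8 (0.960), Synpo2l (0.934), Htr5b (0.923), Rxfp1 (0.919), Lrrc15 (0.915), Mmrn1 (0.910), Apoa4 (0.894) and Gnmt (0.894). Synpo2l read 2501 in detrusor 1 and from 164 to 750 on the other arrays. These correlations are over 9 arrays, were ranked over 9089 genes with a range of at least 2 log2 units, and only describe the arrays.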

How the data were processed

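Probe set intensities of 9 arrays were made by the authors with GCOS, per the submitters' processing notes (no version or algorithm is named there), from RNA amplified in 2 rounds, per the labels' protocols. The deposited intensity values were already scaled to 1 level, and this scaling was kept. Of 45101 probe sets, 64 were controls, 34945 had 1 gene symbol, 932 several and 9160 none. Values were taken as log2(intensity + 39.31), the 20th percentile of all values. Probe sets at or above the array median on at least 3 arrays were kept and that of highest mean log2 level represented a gene (13064 genes). Differences between layers were fitted in R 4.3.3 by limma 3.58.1 (lmFit, eBayes with trend, Benjamini-Hochberg, adjusted p under 0.05), over 9 arrays for detrusor and over the 6 stroma and urothelium arrays for those layers, and the fits were tested on simulated data. The genes, lists and rules were chosen with earlier results of these data known. Genes named from the lists are the 4 with the largest and the 2 with the lowest difference between detrusor and stroma and up to 4 with the largest lead of detrusor 1. Tnnt2, Myl7, Nppa, Myh6, Nkx2-5, Gata4, Myh7, Trim63, Myh11, Krt19, Des, Cryab, Jph2 and the other genes of the myosin cluster were named after their values were seen. Alternatives were quantile normalization, median centring, pseudocounts of 8.13 and 232.9, other filters, leaving out arrays, postnatal day as a covariate and array weights.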

Additional observations from a re-analysis of the deposited data

How the results depend on the processing

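For the patterns, the normalization, pseudocount, limit and choice of probe set were varied. The genes of the 9 raised in all 3 detrusor arrays then numbered 2, except 1 with a limit of 2 log2 units. Those raised in detrusor 1 only numbered between 4 and 6. The filters could not change these counts, since the 9 genes were counted without a filter. Leaving out arrays, postnatal day as a covariate and array weights were not run for the patterns. Taking each gene's brightest probe set on the linear scale, an alternative chosen after seeing the data, gave 5, adding Ttn. Called genes between detrusor and stroma ranged from 105 to 851 when 1 array was left out and were 428 without stroma 3 and urothelium 3 together, against 763, and the wider striated muscle genes called ranged from 3 to 19, against 16. Between detrusor and urothelium the range was 1172 to 2435, and 3785 with array weights, against 2145. Between urothelium and stroma it was 0 to 145, and 30 with all 9 arrays, against 0. The cause was not tested. With median centring 588 genes were higher and 144 lower in detrusor than in stroma, against 408 and 355. Of the values of single genes, 4 moved by more than the spread between replicates, all differences between detrusor and stroma, those of Myh8 (7.62 and 4.66 with the lower and higher pseudocount) and Ckm (6.04 with median centring and 4.91 with the higher pseudocount). That spread is wide for genes high in detrusor 1 alone, so large shifts of theirs did not count as moved. Without detrusor 1 the difference went from 0.71 to -1.12 for Myog and from 0.67 to -0.86 for Mylpf. For Myh3 it went from 2.28 to 0.49 and for Myl1 from -0.91 to -2.61, while Ckm (5.52) and Myh8 (6.0) stayed high. No paired analysis was possible because the labels give no replicate numbers shared between layers. The number of arrays limits the precision, and signals without detection calls leave low values without an order.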

Other observations

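Of the 51 named genes raised in detrusor 1 only, 31 were in no list used here. Some are known from striated muscle, such as Csrp3, the muscle LIM protein (1502 in detrusor 1, 44.0 in detrusor 2, 150.3 in detrusor 3 and 436 at most elsewhere), and Klhl40, a thin filament stabiliser (234 in detrusor 1, 6.02 and 57.1 in detrusor 2 and 3, and 32.7 at most elsewhere). Others are known from lymphatic endothelium, such as Prox1 (1274 in detrusor 1, 3.92 and 203.8 in detrusor 2 and 3, and 322 at most elsewhere) and Mmrn1 (1802 in detrusor 1, 244 and 89.4 in detrusor 2 and 3, and 462 at most elsewhere). These genes were picked after their values were seen.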
